A study of Homo sapiens with 9 samples.

Results

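Expression of 7 genes of the ADP-ribosylation machinery, PARP9, DTX3L, PARP14, PARP12, PARP10, PARP1 and PARP2, was examined in stable lines of T47D cells. T47D is an established human breast cancer cell line of luminal type. The genes were taken as every probe that the array files name for them, which gave 11 of 58201 probes and 7 of 43395 genes. Of these 11 probes, 10 stood well above background on each of the 9 arrays, and these 10 were tested. The remaining probe, 1 of 3 for PARP1, did not rise clearly above background on any of the 9. PARP9, DTX3L, PARP14, PARP12 and PARP10 are known as interferon-inducible genes, and PARP1 and PARP2 were included as the reference that is not.

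The study asked how gene expression in T47D cells changes with PTH-AS, a long noncoding RNA transcribed antisense downstream of the parathyroid hormone gene. Cells were stably transfected with the vector pTARGET and selected with G418, so the 3 lines share the T47D background, the vector and the selection. T47D-VC1 received the empty vector, T47D-PA5 a fragment that lacks part of the 5′ side of PTH-AS and gives incomplete PTH-AS, and T47D-PA6 a fragment that holds full-length PTH-AS. RNA of each line was hybridized to 3 single-color arrays. Each group is 1 selected line, so the inserted fragment and other differences between selected lines cannot be told apart. Nothing in the sources used here says whether the 3 arrays of a line came from separate cultures, and p-values measure only the spread between these arrays. No probe on the array is named for PTH-AS.

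ADP-ribosylation is the transfer of ADP-ribose from NAD to a protein or nucleic acid by the PARP family of enzymes. PARP1 and PARP2 respond to DNA strand breaks in the nucleus and build chains of ADP-ribose there, whereas PARP10, PARP12 and PARP14 add single units and are known for roles in the antiviral response, in signaling and in RNA metabolism. PARP9 binds ADP-ribose through macrodomains and forms a stable complex with the E3 ubiquitin ligase DTX3L, and PARP9 and DTX3L are transcribed in opposite directions from neighboring start sites. Interferons act through factors that bind a short element in the promoters of their target genes, the interferon-stimulated response element (ISRE), whereas the gamma-activated site (GAS) is the element bound after interferon-gamma.

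RefSeq promoter windows (GRCh38.p14) matched 6 of the 7 genes, and PARP10 is named only. The windows were searched on both strands for the ISRE core GAAANNGAA and for the GAS letters TTCNNNGAA, and these motifs do not overlap in any of the windows searched for the 6 genes. Of all 35116 windows, 8.11% held the ISRE core and 7.66% the GAS letters. The stretches shown are the ones that hold the core in the interferon-inducible genes, followed by the same kind of stretch around the start sites of the reference genes, which holds none. Each is printed 5′ to 3′ with the ISRE core in capitals.
DTX3L and PARP9, shared stretch, chr3:122564251-122564387, plus strand: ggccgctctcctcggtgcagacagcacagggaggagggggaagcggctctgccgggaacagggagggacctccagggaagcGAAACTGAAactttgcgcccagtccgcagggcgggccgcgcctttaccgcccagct
PARP14, chr3:122680754-122680873, plus strand: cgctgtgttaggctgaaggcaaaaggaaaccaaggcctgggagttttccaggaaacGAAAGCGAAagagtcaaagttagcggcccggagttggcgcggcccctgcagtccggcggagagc
PARP12, chr7:140062902-140063021, minus strand: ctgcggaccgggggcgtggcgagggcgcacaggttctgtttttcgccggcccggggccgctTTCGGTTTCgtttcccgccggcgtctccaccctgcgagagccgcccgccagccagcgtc
PARP1, chr1:226408044-226408163, minus strand: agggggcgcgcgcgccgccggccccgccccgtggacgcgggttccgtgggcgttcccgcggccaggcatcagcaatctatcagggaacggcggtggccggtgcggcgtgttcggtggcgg
PARP2, chr14:20343565-20343684, plus strand: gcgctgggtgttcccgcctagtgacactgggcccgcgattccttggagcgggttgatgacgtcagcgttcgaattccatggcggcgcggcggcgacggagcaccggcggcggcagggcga

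The DTX3L window and 1 of the 2 PARP9 windows overlap in the 137 bases shown and share 1 ISRE core, from 122564332 to 122564340 on chromosome 3. Its first base lay at -6 from the DTX3L start site and, read on the other strand, at -40 from that PARP9 start site. The other PARP9 window held 0 cores. PARP14 had 1 core starting at -29, and it was the only interferon-inducible gene of those matched with a GAS match, starting at -40. In PARP12 the core lay at -9 and appears in its reverse-complement form. PARP1 had 0 matches to either motif, and PARP2 had 0 cores and 1 GAS match, at -154. These are matches of letters only, and binding was not measured.

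Signals are quantile-normalized intensities, averaged in a line as geometric means with the SD on the log2 scale (n = 3 throughout). Differences are log2 fold changes from limma with their standard errors (SE), fitted over all 20092 genes tested and adjusted by the Benjamini-Hochberg method, with a threshold of 0.05. T47D-VC1 arrays enter both comparisons with T47D-VC1, and T47D-PA6 arrays both comparisons of T47D-PA6, so the 3 comparisons are not independent. With 3 arrays in each of 2 lines, the smallest p that an exact two-sided permutation test allows is 0.1, and none was run. On each array 44% to 48% of the probes were well above background, and 0 spots were saturated. Replicate 1 of all 3 lines lay on slide 1, replicate 2 of T47D-VC1 and T47D-PA5 on slide 2, and the other 4 arrays on slide 3, and slide 1 belongs to an earlier scan run than the other slides. In cultured cells measured in bulk, more cells expressing a gene and more RNA per cell cannot be told apart.

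In T47D-PA6, all 5 interferon-inducible genes exceeded their T47D-VC1 level, by 1.54 (PARP12) to 3.33 (PARP9) on the log2 scale. Over all genes tested, 4.69% were called higher. The 5 genes were also all past the ratio of 2 that the study's methods use, as were 3.47% of all genes. The reference genes did not share this direction, since PARP1 was lower and PARP2 had a log2 fold change of 0.00. In T47D-PA5, DTX3L, PARP14 and PARP12 were called higher than in T47D-VC1, 3 of the 5 genes, against 1.37% of all genes. Past the ratio of 2 were PARP14, DTX3L and, without a call, PARP9, 3 of the 5 against 2.17% of all genes. All 5 genes were called higher in T47D-PA6 versus T47D-PA5, against 3.65% of all genes. The 5 genes had medians on the log2 scale of 2.65, 1.22 and 1.26 in the 3 comparisons in this order, against -0.03, -0.03 and 0.00 over all genes.

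**Figure D1:**
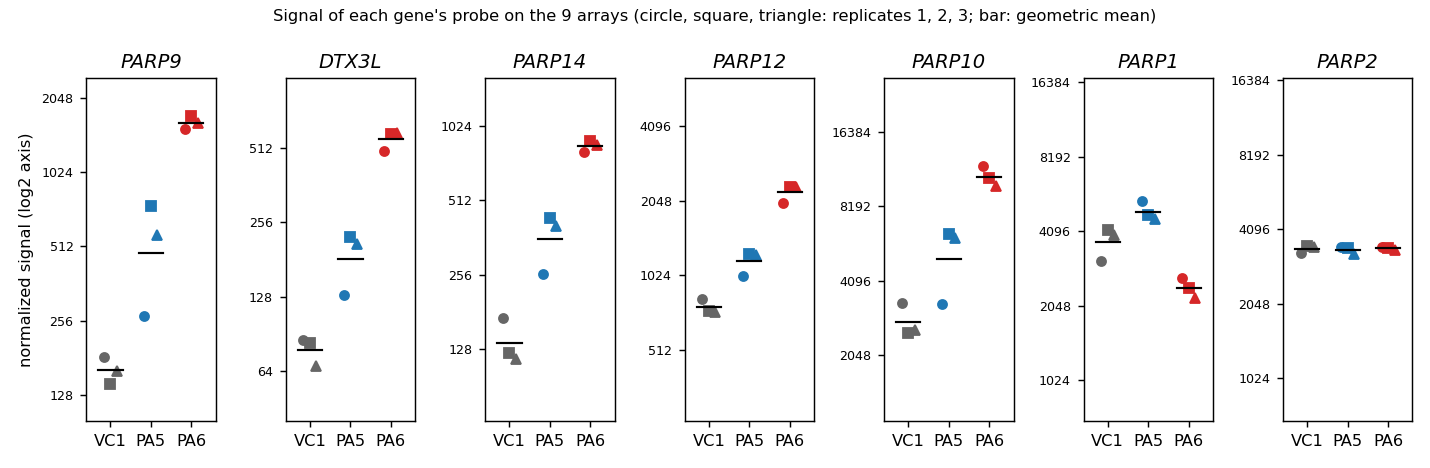
Normalized signal (log2 axis) of the probe read for each of the 7 genes on the 9 arrays, with replicates 1, 2 and 3 as circle, square and triangle and the geometric mean of each line as a bar. Every panel spans the same number of log2 units. For the 5 interferon-inducible genes all T47D-PA6 arrays lie above all T47D-VC1 and T47D-PA5 arrays, and replicate 1 is the lowest T47D-PA5 array, whereas PARP1 is lowest in T47D-PA6 and PARP2 stays between 3257 and 3509 on all arrays.

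The PARP9 probe with the higher signal (hg19, chromosome 3, 122247297 to 122247356) read 183, 143 and 160 on the T47D-VC1 arrays in the order of their replicate numbers. It read 267, 748 and 567 in T47D-PA5 and 1532, 1728 and 1609 in T47D-PA6. The 3 lines did not overlap, and the T47D-PA5 arrays were the most spread. The means were 161 (SD 0.18), 484 (SD 0.77) and 1621 (SD 0.09), which put T47D-PA6 10.04-fold above T47D-VC1. The log2 fold change was 3.33 (SE 0.32, 95% interval 2.59 to 4.07, limma adjusted p = 0.001). Over T47D-PA5 it was 1.74 (SE 0.32, limma adjusted p = 0.015). T47D-PA5 lay 1.58 above T47D-VC1, which did not pass the threshold (95% interval 0.84 to 2.33, limma adjusted p = 0.054). Without T47D-PA5 replicate 1 this value was 2.01 (limma adjusted p = 0.0018).

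A second PARP9 probe, from 122250689 to 122250748, ordered the lines in the same way, also with no overlap. It read 103, 95.9 and 88.8 in T47D-VC1, 142, 226 and 236 in T47D-PA5, and 620.1, 879 and 875 in T47D-PA6. Its log2 fold change was 3.03 in T47D-PA6 versus T47D-VC1 (SE 0.22, limma adjusted p = 0.00041, adjusted over the tested probes). It was 1.04 in T47D-PA5 versus T47D-VC1 (SE 0.22, limma adjusted p = 0.057), so neither PARP9 probe passed in that comparison, although the lines did not overlap at either. Between T47D-PA6 and T47D-PA5 it was 1.99 (limma adjusted p = 0.0024).

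DTX3L, the ligase partner of PARP9, was read by 1 probe (chromosome 3, 122293039 to 122293098). Its signal was 85.4, 82.9 and 66.9 in T47D-VC1, 129.6 in T47D-PA5 replicate 1, 223 and 208 in the other T47D-PA5 arrays, and 497, 580.0 and 587 in T47D-PA6. Each line stood apart from the others on every array. The mean was 78.0 in T47D-VC1 (SD 0.19), 182 in T47D-PA5 (SD 0.43) and 553 in T47D-PA6 (SD 0.13). T47D-PA6 was 7.10-fold above T47D-VC1, a log2 fold change of 2.83 (SE 0.21, limma adjusted p = 0.00038), and T47D-PA5 was 2.33-fold above it, 1.22 (SE 0.21, limma adjusted p = 0.028). Between T47D-PA6 and T47D-PA5 the log2 difference was 1.61 (limma adjusted p = 0.0044).

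PARP14, a large macrodomain PARP and a cofactor of interleukin-4 signaling, lies on the same stretch of chromosome 3 (probe 122437444 to 122437503). The T47D-VC1 arrays read 172, 124 and 117, the T47D-PA5 arrays 257, 435 and 404, and the T47D-PA6 arrays 806, 893 and 856. Again no array of a line overlapped with another line. The means of 136 (SD 0.30), 356 (SD 0.41) and 851 (SD 0.07) gave log2 fold changes of 2.65 in T47D-PA6 versus T47D-VC1 (SE 0.22, limma adjusted p = 0.00056) and 1.39 in T47D-PA5 versus T47D-VC1 (SE 0.22, limma adjusted p = 0.02). T47D-PA6 lay 1.26 above T47D-PA5 (SE 0.22, limma adjusted p = 0.011).

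As a group, the genes around PARP9, DTX3L and PARP14 did not share these differences. Within 5 Mb of the DTX3L probe, 77 other tested genes had a median of -0.18 on the log2 scale in T47D-PA6 versus T47D-VC1. Of these, 2 were called higher and 5 lower, against 4.69% and 5.35% of all genes. The median in T47D-PA5 versus T47D-VC1 was -0.05. KPNA1 and HSPBAP1, an importin and a heat shock protein binding partner on either side of the 3 genes, had log2 fold changes of -0.29 and 0.12 in T47D-PA6 versus T47D-VC1. PARP15, a related macrodomain gene between DTX3L and PARP14, has 1 probe, which was well above background on 0 arrays.

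**Figure D2:**
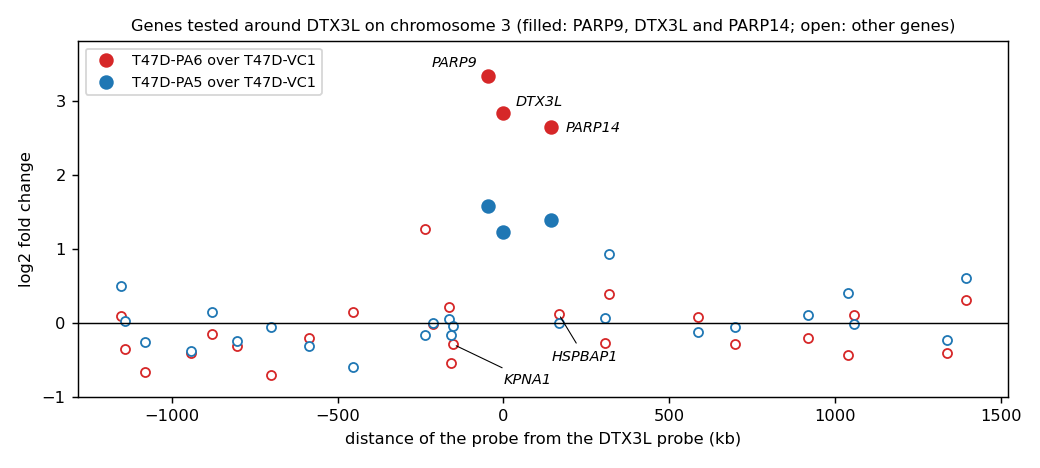
Log2 fold change over T47D-VC1 (y axis) of the tested genes around DTX3L on chromosome 3 against the distance of their probe from the DTX3L probe in kb (x axis), in red for T47D-PA6 and in blue for T47D-PA5. The filled points of PARP9, DTX3L and PARP14 lie at 2.65 to 3.33 in T47D-PA6 and at 1.22 to 1.58 in T47D-PA5, and the open point next highest in T47D-PA6 is CSTA at 1.27, a gene named after its value was seen.

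PARP12, a zinc finger PARP known to restrict viruses, was read on chromosome 7 (139723946 to 139724005). Its signal was 821, 737 and 726 in T47D-VC1, 1021, 1251 and 1243 in T47D-PA5, and 2008, 2332 and 2328 in T47D-PA6. The lines did not overlap. T47D-PA6 had a mean of 2217 (SD 0.12) against 760.0 in T47D-VC1 (SD 0.10), a log2 fold change of 1.54 (SE 0.12, limma adjusted p = 0.00048). In T47D-PA5 the mean was 1167 (SD 0.17), 0.62 above T47D-VC1 (SE 0.12, limma adjusted p = 0.046) and 0.93 below T47D-PA6 (limma adjusted p = 0.0044). The call in T47D-PA5 versus T47D-VC1 lay near the threshold and was lost under 12 of 22 alternative settings, the slide as a block among them (0.62, limma adjusted p = 0.05). Its differences over T47D-VC1 were the smallest of the 5 genes in both lines.

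PARP10, a mono-ADP-ribosyltransferase known as a partner of MYC, has 2 tested probes on chromosome 8. The brighter probe, from 145051321 to 145051380, read 3336, 2504 and 2578 in T47D-VC1 and 11919, 10637 and 9903 in T47D-PA6. In T47D-PA5 it read 3288 on replicate 1 and 6346 and 6104 on the others. Replicate 1 of T47D-PA5 was thus below replicate 1 of T47D-VC1, and these lines overlapped. T47D-VC1 had a mean of 2782 (SD 0.23), T47D-PA5 one of 5031 (SD 0.53) and T47D-PA6 one of 10788 (SD 0.13). T47D-PA6 exceeded T47D-VC1 by 1.96 (SE 0.25, limma adjusted p = 0.003) and T47D-PA5 by 1.10 (SE 0.25, limma adjusted p = 0.029). T47D-PA5 versus T47D-VC1 was 0.85 (SE 0.25, 95% interval 0.29 to 1.42), which did not pass (limma adjusted p = 0.14). Without T47D-PA5 replicate 1 it was 1.16 (limma adjusted p = 0.014).

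The second PARP10 probe, from 145059052 to 145059111, gave a smaller difference. It read 27.1, 19.2 and 31.3 in T47D-VC1, 34.1, 38.8 and 37.2 in T47D-PA5, and 40.5, 49.4 and 43.0 in T47D-PA6, close to the lowest signals well above background, which were 9.59 to 15.2 on the 9 arrays. The lines did not overlap, and T47D-PA6 lay 0.80 above T47D-VC1 (SE 0.18, limma adjusted p = 0.027, over the tested probes). In T47D-PA6 versus T47D-PA5 the 2 probes had the same direction but differed in size. The second gave 0.27 and did not pass (limma adjusted p = 0.4), where the brighter gave 1.10. The 123 tested genes within 5 Mb of PARP10 had a median of 0.12 on the log2 scale in T47D-PA6 versus T47D-VC1. Of these, 11 were called higher and 0 lower by limma, against 4.69% and 5.35% of all genes. For the 84 around PARP12 the median was -0.03.

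PARP1, the main sensor of DNA strand breaks, went the other way in T47D-PA6. Its brighter probe (chromosome 1, 226589945 to 226590004) read 3116, 4144 and 3938 in T47D-VC1, 5429, 4761 and 4576 in T47D-PA5, and 2646, 2417 and 2189.8 in T47D-PA6. The T47D-PA6 arrays were all below, and the T47D-PA5 arrays all above, those of T47D-VC1. The mean was 3705 in T47D-VC1 (SD 0.22), 4909 in T47D-PA5 (SD 0.13) and 2410.4 in T47D-PA6 (SD 0.14). The log2 fold change was -0.62 versus T47D-VC1 (SE 0.14, limma adjusted p = 0.029) and -1.03 versus T47D-PA5 (SE 0.14, limma adjusted p = 0.0051), comparisons in which 5.35% and 6.07% of all genes were called lower. The difference of 0.41 in T47D-PA5 versus T47D-VC1 did not pass (95% interval 0.09 to 0.72, limma adjusted p = 0.2). In that comparison 0 of the 7 genes were called lower by limma, against 0.299% of all genes, and 6 of the 7 had an unadjusted p under 0.05, all with higher signal in T47D-PA5.

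A second PARP1 probe, from 226549161 to 226549220, showed the difference between T47D-PA6 and T47D-PA5 but did not pass against T47D-VC1. It read 843, 1157 and 1244 in T47D-VC1, 1246, 1462 and 1256 in T47D-PA5, and 859, 694 and 669 in T47D-PA6. T47D-PA6 replicate 1 lay above T47D-VC1 replicate 1, both on slide 1, so these lines overlapped. The log2 fold change was -0.53 against T47D-VC1 (limma adjusted p = 0.082) and -0.84 against T47D-PA5 (limma adjusted p = 0.019).

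The median of the genes near PARP1 lay on the same side of 0 as PARP1 in each comparison. The 106 other tested genes within 5 Mb had a median of -0.24 on the log2 scale in T47D-PA6 versus T47D-VC1. It was 0.31 in T47D-PA5 versus T47D-VC1 and -0.59 in T47D-PA6 versus T47D-PA5. In this order, 2, 4 and 1 of the 106 were called higher and 16, 1 and 48 lower. Of all genes, 4.69%, 1.37% and 3.65% were called higher and 5.35%, 0.299% and 6.07% lower. Along the long arm of chromosome 1, 908 tested genes had medians of -0.20, 0.32 and -0.57. Of these 908, in the same order, 24, 54 and 10 were called higher and 123, 1 and 413 lower. PARP1 minus its neighbors' median was -0.38 in T47D-PA6 versus T47D-VC1, where 11 of the 106 were lower still. It was -0.44 in T47D-PA6 versus T47D-PA5, where 9 were lower, and 0.09 in T47D-PA5 versus T47D-VC1, where 73 were lower. The part of this shift along the chromosome in the PARP1 values was not tested.

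**Figure D3:**
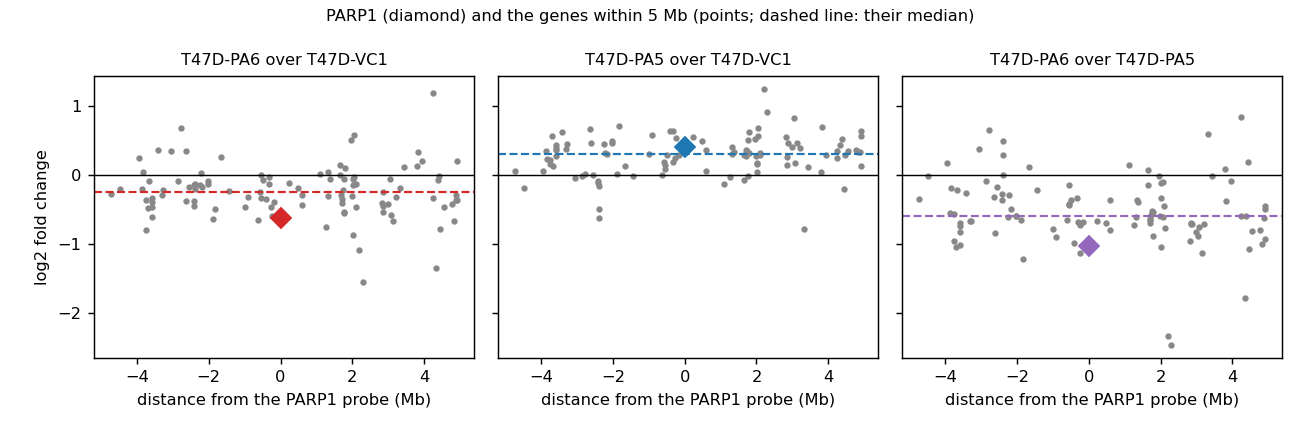
Log2 fold change (y axis) of PARP1 (diamond) and of the 106 other tested genes within 5 Mb (gray points) against the distance of their probe from the PARP1 probe in Mb (x axis), a panel for each comparison, with the median of the neighbors as a dashed line. The medians lie at -0.24, 0.31 and -0.59, on the same side of 0 as PARP1 in each panel.

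PARP2, which acts beside PARP1 at strand breaks, had almost the same signal in all lines (chromosome 14, 20825902 to 20825961). The 9 arrays read between 3257 and 3509. The means were 3414 in T47D-VC1 (SD 0.06), 3386 in T47D-PA5 (SD 0.05) and 3424 in T47D-PA6 (SD 0.02). The log2 fold changes were 0.00 in T47D-PA6 versus T47D-VC1 (95% interval -0.19 to 0.20), -0.01 in T47D-PA5 versus T47D-VC1 (-0.20 to 0.18) and 0.02 in T47D-PA6 versus T47D-PA5 (-0.18 to 0.21). Differences of more than about 0.2 on the log2 scale lie outside these intervals.

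**Figure D4:**
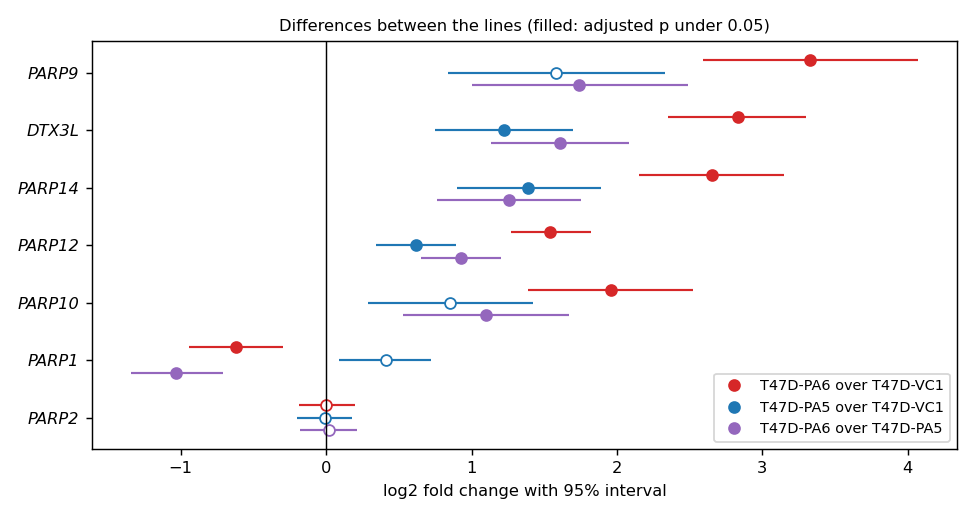
Log2 fold change with its 95% interval (x axis) of the 7 genes (y axis) in T47D-PA6 versus T47D-VC1 (red), T47D-PA5 versus T47D-VC1 (blue) and T47D-PA6 versus T47D-PA5 (purple), filled where the limma adjusted p was under 0.05. The 5 interferon-inducible genes lie right of 0 in all 3 comparisons, with the T47D-PA5 versus T47D-VC1 points of PARP9 (1.58) and PARP10 (0.85) open, PARP1 is at -0.62, 0.41 and -1.03, and the intervals of PARP2 span 0.

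Within single slides the interferon-inducible genes kept their direction in T47D-PA6 versus T47D-VC1. On slide 1, with 1 array of each line, the log2 differences were 3.06 for PARP9, 2.54 for DTX3L, 2.23 for PARP14, 1.29 for PARP12 and 1.84 for PARP10. On slide 3 they were 3.38, 3.12, 2.90, 1.68 and 1.99 in the same order. In T47D-PA5 versus T47D-VC1 the slides differed more. PARP9 was at 0.54 on slide 1, 2.39 on slide 2 and 1.82 on slide 3, and PARP10 at -0.02, 1.34 and 1.24. DTX3L, PARP14 and PARP12 were at 0.60, 0.58 and 0.31 on slide 1 and between 0.76 and 1.81 on the others. For PARP1 the difference between T47D-PA6 and T47D-VC1 was -0.24 on slide 1 and -0.78 on slide 3, whereas that between T47D-PA6 and T47D-PA5 was -1.04 and -0.99. T47D-PA5 replicate 1 was the lowest T47D-PA5 array for all 5 interferon-inducible genes and the highest for the brighter PARP1 probe, but the lowest for the second PARP1 probe. With the slide as a block, PARP10 in T47D-PA6 versus T47D-PA5 was at 1.13 (limma adjusted p = 0.064) and PARP1 in T47D-PA6 versus T47D-VC1 at -0.58 (limma adjusted p = 0.063), and both lost their calls. Each slide value rests on 1 or 2 arrays of a line, and what sets T47D-PA5 replicate 1 apart was not tested.

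The calls in T47D-PA6 versus T47D-VC1 stood for the 5 interferon-inducible genes under all 22 alternative settings, including each array left out in turn. The calls in T47D-PA5 versus T47D-VC1 were less firm. With T47D-PA5 replicate 1 left out, all 5 passed. With T47D-PA5 replicate 2, T47D-PA5 replicate 3, T47D-VC1 replicate 2 or T47D-VC1 replicate 3 left out, 0 of the 7 genes passed in limma. In each case 6 had an unadjusted p under 0.05. Calls also fell over all 20092 genes, from 275 higher to 89, 75, 130 and 82 in this order. The loss is thus not particular to the 7 genes. With T47D-PA6 replicate 2 or 3 left out, which affects only the shared estimate of the spread, 1 of the 7 passed. Over all genes 184 and 164 were then called higher. In T47D-PA6 versus T47D-PA5, PARP9 lost its call without T47D-PA6 replicate 2 (1.70, limma adjusted p = 0.06) or replicate 3 (1.75, limma adjusted p = 0.055). PARP10 lost it there without T47D-PA5 replicate 3 (1.24, limma adjusted p = 0.055) or any 1 of the 3 T47D-PA6 arrays (1.03 to 1.16, limma adjusted p = 0.054 to 0.093). PARP1 kept its call against T47D-PA5 under all 22 settings but lost that against T47D-VC1 under 10 of them, among them leaving out replicate 2 or 3 of any line (-0.62 to -0.54, limma adjusted p = 0.051 to 0.11).

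The profiles of the 5 genes over the 9 arrays were compared as root mean square differences on the log2 scale, after centering each gene on its own mean. DTX3L and PARP14 were the closest pair, at 0.18, whereas PARP9 was 0.30 from DTX3L and 0.35 from PARP14. PARP12 and PARP10 differed by 0.28. Among 18229 other genes well above background on all 9 arrays, the 3 nearest to PARP9 were IRF7 (0.18), SAMD9L (0.20) and HELZ2 (0.21). PLAAT4, IRF7 and HERC6 were nearest to both DTX3L (0.16, 0.17 and 0.19) and PARP14 (0.17, 0.18 and 0.21). For PARP12 they were TAP1 (0.11), TAP2 (0.12) and ICAM1 (0.12), and for PARP10 DHX58 (0.10), LGALS3BP (0.17) and EIF2AK2 (0.18). All points of a profile come from the same 9 arrays, and the measure is given as a description.

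Other genes of the ADP-ribosylation machinery were also called. The largest shares per direction were 9.38% over all lists together, 3 of 32 genes, and 28.6% in a single list, 2 of 7. Both were of genes lower in T47D-PA6 versus T47D-PA5, where 6.07% of all genes were called lower, and both include NMNAT2. Of 37 other genes of this machinery listed, 36 were found by name on the array and 32 were tested. In T47D-PA6 versus T47D-VC1, 2 were called higher and 2 lower, 6.25% each against 4.69% and 5.35% of all genes, with a median log2 fold change of 0.04. In T47D-PA5 versus T47D-VC1, 1 was called higher and 0 lower by limma, against 1.37% and 0.299% of all genes, with a median of -0.05 and with 5 at an unadjusted p under 0.05. In T47D-PA6 versus T47D-PA5, 1 was called higher and 3 lower, against 3.65% and 6.07% of all genes, with a median of 0.03. The higher call in T47D-PA5 versus T47D-VC1 was NMNAT2, as was a lower call in T47D-PA6 versus T47D-PA5. NMNAT2 passed the filter for testing only through T47D-PA5, where it was high. These counts, and those of the single lists, rest on few genes and are given as a description.

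Both higher calls in T47D-PA6 versus T47D-VC1 were among the 9 other tested members of the PARP family, 22.2% against 4.69% of all genes. PARP6, a mono-ADP-ribosyltransferase, read 2304, 1637 and 1858 in T47D-VC1, 1615, 1824 and 1689.95 in T47D-PA5, and 2691, 3215 and 3172 in T47D-PA6. T47D-PA6 was above both other lines on every array, by 0.66 versus T47D-VC1 (SE 0.14, limma adjusted p = 0.026) and 0.82 versus T47D-PA5 (limma adjusted p = 0.011). ZC3HAV1, also known as PARP13 and as the zinc finger antiviral protein, lay 0.62 above T47D-VC1 (SE 0.14, limma adjusted p = 0.033), and its T47D-PA6 arrays read 3649 to 4864 against 2472 to 2952 in T47D-VC1. Its difference of 0.38 from T47D-PA5 did not pass (limma adjusted p = 0.15). The other 7 had log2 fold changes of -0.43 (PARP3) to 0.51 (PARP8) in T47D-PA6 versus T47D-VC1 and did not pass.

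Of the other deltex ligases, the family of DTX3L, 0 of 3 tested were called by limma in any comparison. Since 0.299% to 6.07% of all genes were called per direction, this count is not read as a difference from them. In T47D-PA6 versus T47D-VC1, 1 of the 3 had an unadjusted p under 0.05. That was DTX4, which did not rise well above background in T47D-VC1 or on T47D-PA6 replicate 1 and read 5.80, 49.3 and 48.5 in T47D-PA6 against 3.72 to 7.09 in T47D-VC1 (limma adjusted p = 0.092). The repair partners of PARP1 and PARP2, HPF1, XRCC1, LIG3, POLB and APTX, gave 0 calls of 5 by limma in all 3 comparisons. Of all genes, 4.69% were called higher and 5.35% lower in T47D-PA6 versus T47D-VC1. These shares were 1.37% and 0.299% in T47D-PA5 versus T47D-VC1, and 3.65% and 6.07% in T47D-PA6 versus T47D-PA5. In this order, 1, 0 and 2 of the 5 had an unadjusted p under 0.05, and the medians were 0.07, -0.19 and 0.11.

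Among 8 erasers and readers of ADP-ribose tested, 1 was called lower in each comparison of T47D-PA6, against 5.35% and 6.07% of all genes. CHD1L, a chromatin remodeler that binds ADP-ribose chains, read 909.7, 1171 and 1199 in T47D-VC1, 1389, 1225 and 1169.8 in T47D-PA5, and 738, 667 and 695 in T47D-PA6. T47D-PA6 gave log2 fold changes of -0.63 versus T47D-VC1 (SE 0.13, limma adjusted p = 0.022) and -0.85 versus T47D-PA5 (limma adjusted p = 0.0075). The CHD1L probe, like those of PARP1, is on the chromosome 1 long arm, whose median was -0.20 and -0.57 in these comparisons.

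Of the 7 genes that supply NAD, 1 was called lower in T47D-PA6 versus T47D-VC1, against 5.35% of all genes. In T47D-PA6 versus T47D-PA5, 2 were called lower, against 6.07% of all genes. In T47D-PA5 versus T47D-VC1, 1 was called higher, against 1.37%. NADSYN1, which makes NAD from its acid form, read 807, 753 and 802 in T47D-VC1 and 645, 453 and 514 in T47D-PA6, a log2 fold change of -0.57 (SE 0.14, limma adjusted p = 0.042), and one of -0.58 against T47D-PA5 (limma adjusted p = 0.039). NMNAT2, a cytoplasmic enzyme of the last step to NAD, was well above background in T47D-PA5 only, at 75.5, 50.1 and 43.2. It passed the filter for testing through that line alone. The T47D-VC1 arrays read 6.83 to 13.1 and the T47D-PA6 arrays 10.4 to 13.8. T47D-PA5 was at least 4.12-fold higher than T47D-VC1 and at least 4.30-fold higher than T47D-PA6. Each dim array was taken at its lowest signal well above background or the probe's own signal, whichever was higher. The limma calls of NMNAT2 use the measured signals, which in T47D-VC1 and T47D-PA6 were not well above background. They are not read as support for these bounds. NMNAT2 is on that chromosome arm too.

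**Figure D5:**
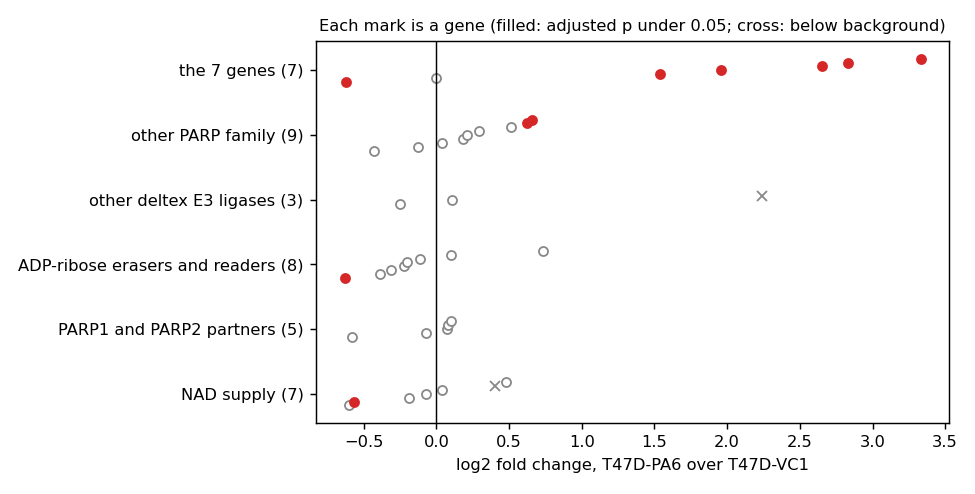
Log2 fold change in T47D-PA6 versus T47D-VC1 (x axis) of the 7 genes and of the tested genes of 5 other lists of the ADP-ribosylation machinery (y axis, number tested in parentheses), filled where the limma adjusted p was under 0.05, with crosses for DTX4 and NMNAT2, which were not well above background in T47D-VC1 and have no measured fold there. The 5 interferon-inducible genes lie at 1.54 to 3.33, and the called genes of the other lists lie between -0.63 and 0.66.

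The arrays bore the markers of the labelled cell type. All 8 luminal epithelial markers, KRT8, KRT18, KRT19, EPCAM, GATA3, FOXA1, ESR1 and PGR, were well above background on all 9 arrays, with summed signals of 475321 to 513970. The progesterone receptor gene PGR was lower in T47D-PA6, with a log2 fold change of -1.07 versus T47D-VC1 (limma adjusted p = 0.0072). Of 3 leukocyte markers, PTPRC and CD14 were above background throughout, and CD3E on 0 arrays. CD14 rose by 1.80 on the log2 scale in T47D-PA6 versus T47D-VC1 (SE 0.29, limma adjusted p = 0.0082), whereas PTPRC was at -0.17. The summed signal of the 3 was 68.5 to 82.4 in T47D-VC1, 129.9 to 159 in T47D-PA5 and 128.8 to 238 in T47D-PA6. It was higher on every array of T47D-PA5 and T47D-PA6 than in T47D-VC1, and its part in the values of the 5 genes was not tested. The fibroblast markers COL1A2 and DCN and the endothelial marker PECAM1 were well above background on 0 arrays, whereas COL1A1, CDH5 and VWF were on all 9. COL1A1 was lower in T47D-PA6 versus T47D-VC1, at a log2 fold change of -0.50 (limma adjusted p = 0.02), and the summed signal of the 3 fibroblast markers was 331 to 370.5 in T47D-VC1, 297 to 334 in T47D-PA5 and 245 to 271 in T47D-PA6.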

How the data were processed

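Total RNA of T47D-VC1, T47D-PA5 and T47D-PA6 was measured on 9 single-color Agilent arrays. The authors deposited Feature Extraction's processed intensity for every spot, from which the background had been subtracted but which was not yet normalized between arrays (version 10.7.1.1 in the file headers, 9.5.1.1 in the labels), and a quantile-normalized table of intensities, which was used as an alternative. Of 60901 non-control spots per array, 46 to 117 were left out as outliers. Spots of a probe were averaged as log2 values and quantile-normalized, as the methods state. A probe was tested if all arrays of some line had it well above background. This kept 26155 probes for 20092 genes, and the brightest tested probe stood for a gene. Array names were updated through RefSeq symbols for 31127 probes, accessions for 3343 and synonyms for 496. Probe positions are those of the files (hg19), and their place in exons or UTRs was not analysed here.

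Lines were compared with limma 3.58.1 in R 4.3.3 (lmFit and eBayes, 1 fit over 9 arrays, 6 residual degrees of freedom), with Benjamini-Hochberg adjustment over all genes tested, or over all tested probes where a single probe is given. The unpaired test of the methods was run as an alternative. The fit was tested on simulated data. The precision is limited by the number of arrays.

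The 7 genes, the gene lists and the cell type markers were chosen with earlier results of these data known, and 2 of the genes in them are not reported here. Besides the 7 genes, the text names those listed genes of ADP-ribosylation that were called in at least 1 comparison and, for each interferon-inducible gene, the 3 genes with the most similar profile. The tested repair partners are named as a list. DTX4, PARP3, PARP8, CSTA, KPNA1, HSPBAP1, PARP15 and the markers outside this rule were named after their values were seen.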

Additional observations from a re-analysis of the deposited data

How the results depend on the processing

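Of the 7 genes, 5 were called higher and 1 lower in T47D-PA6 versus T47D-VC1, against 4.69% and 5.35% of all genes. In T47D-PA5 versus T47D-VC1, 3 were called higher and 0 lower by limma, against 1.37% and 0.299%. In T47D-PA6 versus T47D-PA5, 5 were called higher and 1 lower, against 3.65% and 6.07%. The gene called lower was PARP1. With both directions counted together, leaving out each array in turn gave 5 to 6, 0 to 5 and 4 to 6 called genes. In T47D-PA5 versus T47D-VC1, 0 of the 7 genes were called with no filter on dim probes (limma, 6 at an unadjusted p under 0.05). With the 2 compared lines alone 0 were called (limma, 6), and 0 with the methods' t-test after Benjamini-Hochberg adjustment (4). Over all genes, calls higher in these settings were 156, 201 and 31, and calls lower 48, 44 and 8. On the later scan run only, an alternative chosen after seeing the data, 5 of the 7 genes were called. In T47D-PA6 versus T47D-PA5, the methods' t-test called 2 after that adjustment and 6 unadjusted. With T47D-PA6 replicate 2 or 3 left out, 4 were called there. The causes were not tested.

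The replicate block gave 6, 2 and 5 called genes in the 3 comparisons, in the same order. Deviations of same-numbered arrays correlated at 0.0995 to 0.337 (9 pairs) and those of differently numbered arrays at -0.315 to 0.261 (18 pairs). The lowest of the former fell narrowly short of 0.1, all of them were above 0, and the ranges overlap. These correlations do not decide whether the numbers mark pairs. The numbers are not read as pairing in the main fit, which has no block. The replicate 1 arrays share slide 1 and its scan run. They correlated with each other at 0.21 to 0.337 and with the other arrays at -0.315 to -0.13. Over all genes the replicate block called 1217 higher and 1404 lower in T47D-PA6 versus T47D-VC1, against 943 and 1074 without it. PARP12 in T47D-PA5 versus T47D-VC1 (adjusted p = 0.057) and PARP10 in T47D-PA6 versus T47D-PA5 (adjusted p = 0.051) lost their calls under it. The slide as a block gave 5, 2 and 5 called genes, without these 2 and without PARP1 in T47D-PA6 versus T47D-VC1.

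PARP9 in T47D-PA5 versus T47D-VC1 passed under 8 of 22 alternatives, 1 of them the methods' t-test without adjustment (unadjusted p = 0.026). Its adjusted p ranged from 0.0018 to 0.26 over the adjusted alternatives. PARP10 passed under 2, and both leave out T47D-PA5 replicate 1. In T47D-PA6 versus T47D-PA5, calls were lost under 9 of 22 for PARP10 and 4 for PARP9. PARP2 changed sign, with values from -0.06 to 0.03. In T47D-PA6 versus T47D-VC1 it was -0.04 with the 75th percentile shift, 0.00 with normexp, -0.04 on the later scan run, -0.03 without T47D-VC1 replicate 1 and -0.01 without T47D-PA6 replicate 1. Its T47D-PA5 versus T47D-VC1 values were 0.02 with normexp, 0.01 and 0.00 without T47D-VC1 replicates 2 and 3, and 0.02 without T47D-PA5 replicate 3. For T47D-PA6 versus T47D-PA5 it was -0.03 with the 75th percentile shift, -0.02 with normexp and -0.01 to 0.03 with each array left out in turn (-0.01 without T47D-PA5 replicate 3).

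Counts over all genes, higher and lower, moved more. In T47D-PA6 versus T47D-VC1 they were 237 and 195 with the methods' adjusted t-test, 631 and 655 with no filter, 626 and 520 with the 2 lines alone, 395 and 308 without T47D-PA6 replicate 3, and 3458 and 4010 on the later scan run. In T47D-PA5 versus T47D-VC1, 275 and 60 became 31 and 8 with that t-test, 75 and 24 without T47D-PA5 replicate 3, 463 and 146 with the slide block, and 2351 and 1957 on the later scan run. Versus T47D-PA5, 734 and 1219 became 295 and 494, 242 and 484 without T47D-PA6 replicate 3, and 3409 and 3728.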
